A study of Mus musculus with 12 samples.

Results

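The genes described here are the ubiquitin-specific proteases, the largest family of enzymes that remove ubiquitin from proteins, in dissected CA1 tissue of the mouse hippocampus. They were chosen by symbol and selected on their mean count, as protein-coding genes whose name is Usp followed by a digit, with a mean of at least 10 read counts per gene over 12 libraries. Of 56 such genes in the count files, which hold 48709 gene IDs in all, 48 met this minimum. The selection used the level of each gene over all libraries and not the difference between the groups, so the levels below are a description. The libraries came from 2 groups of 6: mice with myocardial infarction (MI) made by ligation of a coronary artery, and mice that had sham surgery without the ligation (Sham). CA1 was cut out of frozen brain under a microscope, and polyadenylated RNA was sequenced in single-end reads. Strain, genotype, sex, age and the time from surgery to dissection are not stated in the labels. Whether each library is a separate mouse is not stated in the labels, and the p-values below then speak only of the spread among libraries, which may be technical.

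Ubiquitin is a small protein that is joined to lysine residues of other proteins, alone or in chains, and marks them for the proteasome, for endocytosis or for changes in activity and binding. Ubiquitin-specific proteases are cysteine proteases that cut this bond, and each acts on its own range of substrates and at its own places in the cell. In neurons, turnover of synaptic proteins by the ubiquitin-proteasome system is part of how synapses change in strength. Family membership by name is not exact. Usp6nl carries a Rab GTPase-activating domain and is no protease, whereas Cyld, Pan2 and Uspl1 belong to the family under other names and are given at the end.

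Library totals ran from 20764133 to 35643127 counts, and Sham 1 was the shallowest. The labelled tissue was checked against markers of CA1 pyramidal neurons: Wfs1 stood at 63.1 RPKM in MI and 58.2 in Sham, and Fibcd1 at 48.6 and 45.4. Prox1, which marks the granule cells of the neighbouring dentate gyrus, stood at 6.03 and 8.35. Here CPM is a gene's count scaled to library size (edgeR CPM), RPKM is CPM per kilobase of annotated exon, and a marker score is the mean log2 CPM of the list minus its mean over the libraries. The CA1 score was lowest in Sham 1 (-1.0) and highest in Sham 5 (0.64), and the dentate score was highest in Sham 6 (2.26). Myelin marker scores ran from 0.11 to 0.43 in MI and from -0.69 to 0.24 in Sham, with all 16 markers detected and higher on average in MI. Scores of the meningeal and fibroblast markers ran from -0.86 to 0.45 in MI and from -0.69 to 1.48 in Sham, where Sham 1 was highest. In tissue of mixed cells, fewer cells of a type and less RNA per cell cannot be told apart. Counts of Y-linked genes exceeded those of Xist, the RNA of the inactive X chromosome, in MI 1, 3 and 4 and Sham 1, 2 and 3, and were lower than them in the other 6. These are called Y-linked and Xist libraries below, and they are not groups of the study.

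The family covered a wide range of levels, and a few broadly acting members led it. Usp22, the ubiquitin protease of the SAGA chromatin complex, had the highest level per exon length, with 56.0 ± 1.6 RPKM in MI against 58.7 ± 2.9 RPKM in Sham (SD, n = 6 each). Usp5, which takes apart free ubiquitin chains, had 43.4 ± 3.0 and 43.2 ± 3.3 RPKM. Usp11 had 37.5 ± 1.8 and 41.7 ± 2.3 RPKM, and its libraries overlapped those of Usp5. Usp19, an enzyme anchored in the endoplasmic reticulum, had a mean of 27.1 RPKM over the libraries, and Usp7, which acts on p53 and Mdm2, 24.3 RPKM. The median of the 48 genes was 8.62 RPKM, and 21 of them exceeded 10 RPKM. With the longest transcript in place of all annotated exons as the length, the median was 12.8 RPKM. Summed over the family, the level was 3909 ± 65.0 CPM in MI against 3995 ± 128 CPM in Sham (SD, n = 6 each), or 0.391% and 0.400% of counts.

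**Figure D1:**
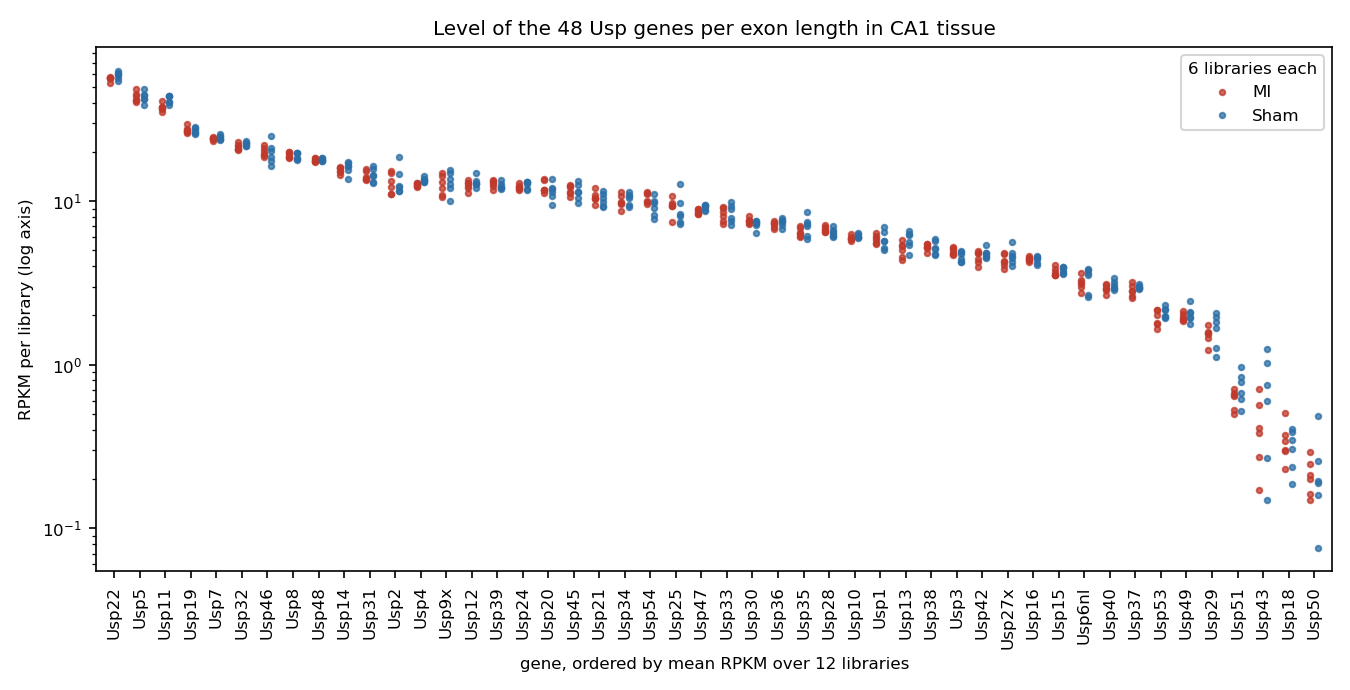
Level of each of the 48 genes in RPKM on a log axis, ordered by the mean over 12 libraries, with 1 point per library in MI and in Sham. Usp22, Usp5 and Usp11 stand at the top, and Usp51, Usp43, Usp18 and Usp50 have means below 1 RPKM.

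Only 4 members had a mean under 1 RPKM, and the same 4 had mean counts under 100. Usp51, a partner-sharing relative of Usp22, had a mean of 38.4 counts per library, Usp43 64.2, Usp18 24.0 and Usp50 17.6, so Usp50 and Usp18 were the genes just inside the minimum. The 8 genes left out had at most 2 counts each over all libraries together: 5 genes of the Usp17-like group, Usp26, Usp44 and Usp9y. Usp26 and the Usp17-like genes are known from the germ line and from cytokine-induced cells. Usp9y, the Y-linked copy of Usp9x, had a single count, in Sham 2, though 6 libraries held counts of other Y-linked genes. Between the members just inside and the genes just outside the minimum there was a wide gap, so a minimum of 1 count keeps the same number of genes (48), and a minimum of 50 keeps 45.

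Whether CA1 levels of these genes differed after MI was asked by comparing the 6 MI with the 6 Sham libraries. In edgeR (quasi-likelihood F test, Benjamini-Hochberg adjusted over all 16829 genes tested), 0 of the 48 genes passed an adjusted p of 0.05, beside 0% of all genes, and the smallest adjusted p of a member was 0.597. DESeq2 called 0 members as well, beside 0.115% of all genes, and limma-voom called 0, beside 0%. At an unadjusted p under 0.05, 1 member was higher in MI (2.08%, beside 3.95% of all genes) and 4 were lower (8.33%, beside 3.59%). The 1 higher gene was Usp54 and the 4 lower ones were Usp11, Usp4, Usp47 and Usp13. DESeq2 gave 5 members at that level (10.4%, beside 7.76% of all genes) and limma-voom also gave 5 (10.4%, beside 11.3%), though limma-voom had Usp35 (unadjusted p of 0.0123) in place of Usp54 (unadjusted p of 0.0712). The MI and Sham libraries did not overlap in CPM for 1 lower member, Usp4, where 0.16% of all genes were lower without overlap, and for 0 higher members, where 0.25% of all genes were.

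The differences were small throughout the family. In 37 of 48 members the log2 fold change lay within 0.1 of 0, and in 46 within 0.2. It was negative in 31 members (64.6%) and in 52.4% of all genes tested, and the median was -0.04, beside -0.01 over all genes tested. Among the 44 members with a mean of at least 400 counts, 28 were negative and the median was -0.04. Of 8786 genes tested with that mean and at least the lowest member's level, 4449 were negative, with a median of -0.00. The median biological coefficient of variation was 8.83% for members and 11.3% over all genes, and 37 of 48 members lay below the latter. At a mean of at least 400 counts the values were close, 8.4% for members and 8.84% for genes of that depth.

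**Figure D2:**
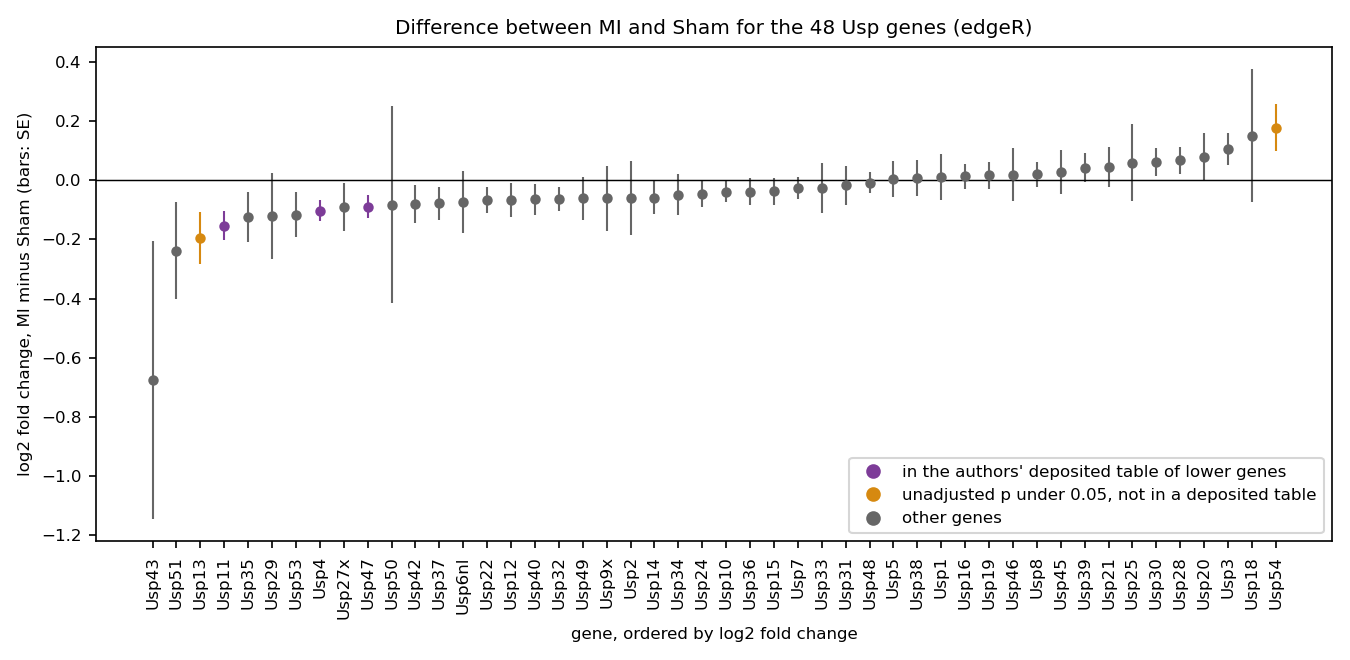
The log2 fold change of MI minus Sham for each of the 48 genes, ordered by its value, with bars of 1 SE from edgeR. Usp54 stands at the upper end with 0.18, and Usp43 at the lower end with -0.67 and the widest bar.

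Usp11, Usp4 and Usp15 are close paralogs that arose by duplication and share their domain layout; they are known to act on receptors and Smad proteins of TGF-beta signalling, among other substrates. Usp11 (ENSMUSG00000031066) lies on chromosome X, 20703906 to 20720539 of mm10, plus strand. Its lowest, median and highest levels were 166.7, 176.7 and 193.0 CPM in MI and 183.9, 198.2 and 208.1 CPM in Sham. All 6 MI libraries lay below the Sham median, and MI 3 alone lay within the Sham range. The means were 177.4 ± 8.68 and 197.4 ± 10.7 CPM (SD, n = 6 each). The log2 fold change was -0.15 (SE 0.05), with an unadjusted p of 0.00715 and an adjusted p of 0.597. It was -0.14 in the Y-linked libraries alone and -0.17 in the Xist libraries alone.

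Usp4 (ENSMUSG00000032612) lies on chromosome 9, 108347853 to 108392545 of mm10, plus strand. Its lowest, median and highest levels were 104.4, 109.3 and 111.0 CPM in MI and 112.2, 116.2 and 123.4 CPM in Sham. Every MI library lay below every Sham library, with MI 1 at 111.0 and Sham 5 at 112.2 CPM the closest. The log2 fold change was -0.10 (SE 0.04), with an unadjusted p of 0.0142 and an adjusted p of 0.597, and it was -0.14 in the Y-linked and -0.07 in the Xist libraries. Usp15, the third paralog, had 3.69 ± 0.21 RPKM in MI against 3.79 ± 0.17 RPKM in Sham (SD, n = 6 each), with a log2 fold change of -0.04 (SE 0.05). Per exon length, Usp11 had the highest level of the 3, with a mean of 39.6 RPKM, ahead of Usp4 with 13.0 and Usp15 with 3.74. With the longest transcript as the length, the order was the same, with 47.1, 30.7 and 5.39 RPKM. No exon of Usp11 or Usp4 overlapped another annotated gene, and 0% and 1.28% of their 50-base stretches occur in other genes.

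**Figure D3:**
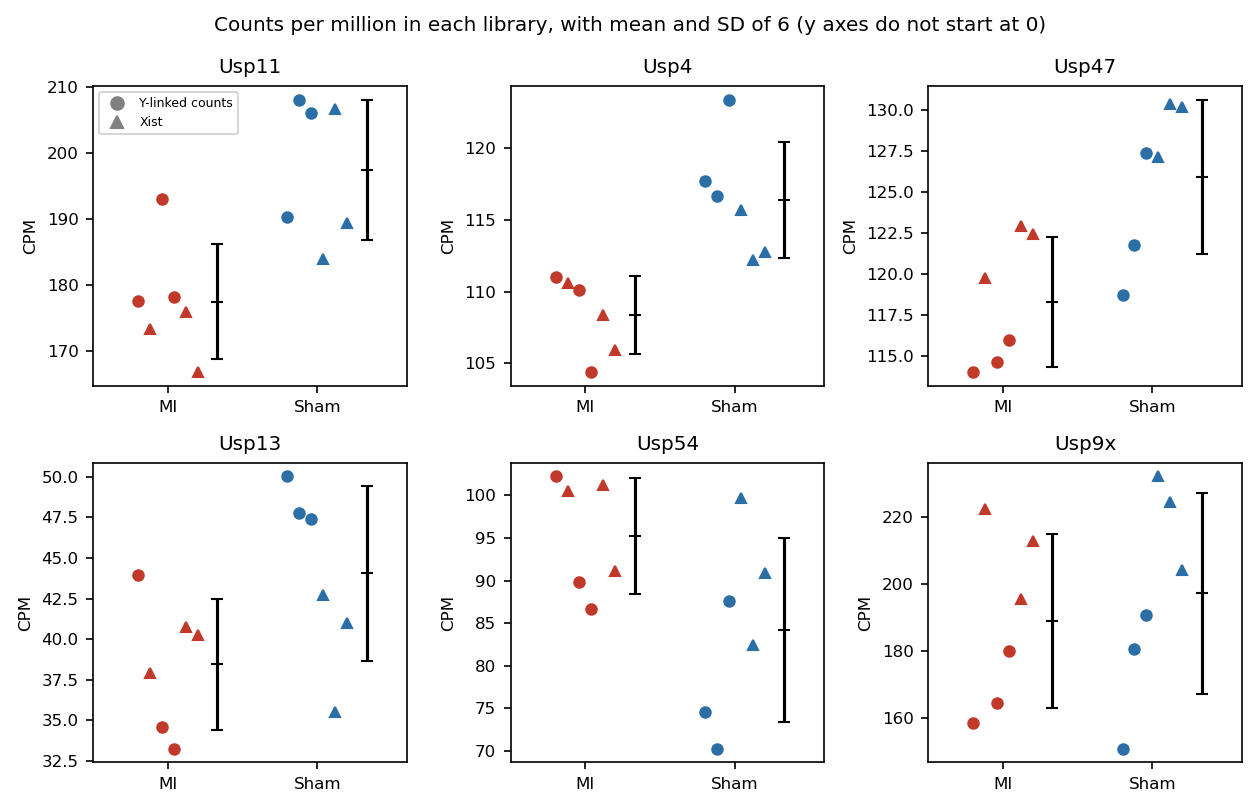
CPM in each library of the 5 genes with an unadjusted p under 0.05 and of Usp9x, with the mean and SD of 6 libraries beside each group; circles are Y-linked libraries and triangles Xist libraries, and the axes do not start at 0. Usp4 shows no overlap between MI and Sham, and in Usp9x the triangles lie above the circles in both groups.

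Usp47 is a relative of Usp7 that acts on DNA polymerase beta in base excision repair. Usp47 (ENSMUSG00000059263) lies on chromosome 7, 112023504 to 112111661 of mm10, plus strand. Its lowest, median and highest levels were 114.0, 117.9 and 122.9 CPM in MI and 118.8, 127.3 and 130.3 CPM in Sham. MI 2, MI 5 and MI 6 lay within the Sham range, and the other 3 MI libraries lay below it. The log2 fold change was -0.09 (SE 0.04), with an unadjusted p of 0.0374 and an adjusted p of 0.635. It was -0.10 in the Y-linked and -0.08 in the Xist libraries.

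Usp11, Usp4 and Usp47 are also the 3 members (6.25%) that the authors' deposited table lists as lower in MI, as it does 2.97% of all genes tested; 0 members stand in the deposited table of higher genes, which holds 3.13% of all genes tested. The table of lower genes was made from these same libraries, so it is no separate evidence of direction. It holds only genes called lower in MI, so a lack of overlap there is no separate result. The share of its genes without overlap was not counted. In the authors' deposited table, Usp11 ranked 3 of 517 by adjusted p, with a log2 fold change of -0.20 and an adjusted p of 0.0027. Usp47 ranked 101 with -0.10 and 0.0188, and Usp4 ranked 170 with -0.10 and 0.0248 in the authors' deposited table. The fold changes are near those from the counts, and the spread is narrower. The log2 values of Usp11 in the authors' deposited table ran from 12.05 to 12.15 in MI and from 12.23 to 12.35 in Sham, without overlap. Their SD was 0.038 and 0.037 in the authors' deposited table, where log2 CPM from the counts gave 0.069 and 0.078. For Usp47 the SD was 0.019 and 0.028 in the authors' deposited table and 0.048 and 0.054 from the counts, and the MI and Sham libraries, which overlap in CPM, did not overlap there. For Usp4 it was 0.027 and 0.033 in the authors' deposited table and 0.036 and 0.050 from the counts. The steps behind the deposited values were not stated in the labels or file headers.

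**Figure D4:**
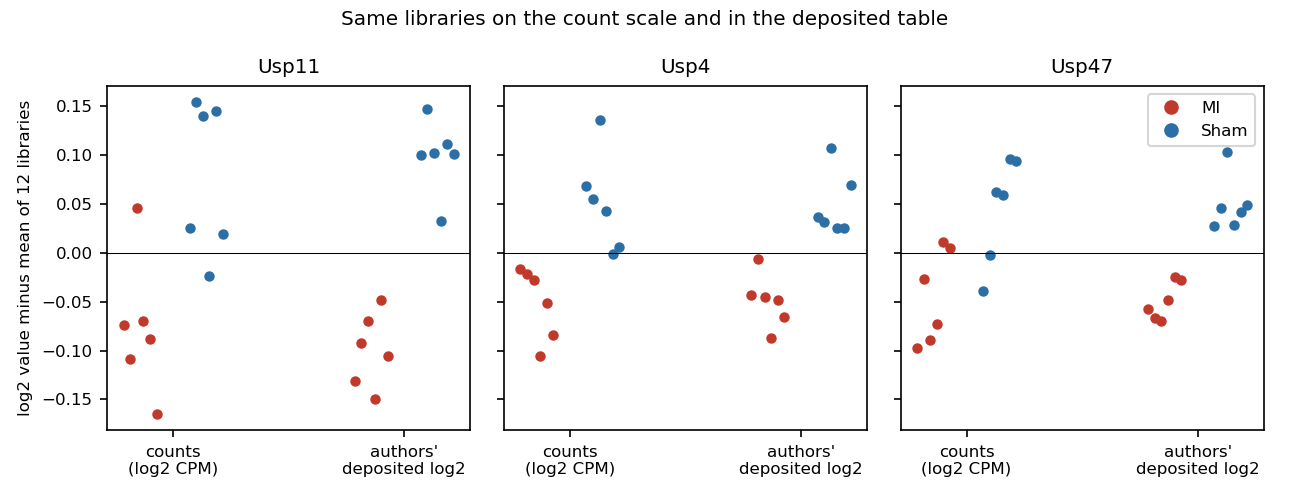
Usp11, Usp4 and Usp47 in each library as log2 CPM from the counts and as the log2 value in the authors' deposited table, each minus the mean of its 12 libraries. In the deposited values all MI points lie below all Sham points in each gene, and in the counts only those of Usp4 do. The deposited table holds only genes called lower in MI from these same libraries.

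The promoters of these 3 genes, 250 bases before to 50 bases after the start of transcription in RefSeq (GRCm38.p6, the same build), are shown because these are the members in the authors' table and their promoters differ in base composition. The motifs were searched on both strands, and capitals mark the matches: the CCAAT box (CCAAT), the GC box (GGGCGG), the E-box (CACGTG) and the ETS motif (CCGGAAG). The TATA box (TATAAA), the CRE (TGACGTCA) and the motif of NRF1 had no match in these 3. The 3 sequences are on the plus strand, Usp11 at chrX:20703659-20703958, Usp4 at chr9:108347581-108347880 and Usp47 at chr7:112023256-112023555.
Usp11: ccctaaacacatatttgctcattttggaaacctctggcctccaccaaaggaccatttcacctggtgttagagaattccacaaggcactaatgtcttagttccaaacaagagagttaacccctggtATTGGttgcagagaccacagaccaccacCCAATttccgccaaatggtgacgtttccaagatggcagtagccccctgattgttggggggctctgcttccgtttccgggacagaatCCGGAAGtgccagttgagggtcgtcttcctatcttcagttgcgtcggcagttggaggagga
Usp4: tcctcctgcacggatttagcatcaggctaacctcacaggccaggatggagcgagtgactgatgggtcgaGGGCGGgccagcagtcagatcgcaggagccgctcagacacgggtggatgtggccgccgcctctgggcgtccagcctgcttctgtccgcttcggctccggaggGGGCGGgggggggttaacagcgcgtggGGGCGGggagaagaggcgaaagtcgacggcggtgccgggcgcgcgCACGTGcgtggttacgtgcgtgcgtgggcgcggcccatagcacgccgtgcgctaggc
Usp47: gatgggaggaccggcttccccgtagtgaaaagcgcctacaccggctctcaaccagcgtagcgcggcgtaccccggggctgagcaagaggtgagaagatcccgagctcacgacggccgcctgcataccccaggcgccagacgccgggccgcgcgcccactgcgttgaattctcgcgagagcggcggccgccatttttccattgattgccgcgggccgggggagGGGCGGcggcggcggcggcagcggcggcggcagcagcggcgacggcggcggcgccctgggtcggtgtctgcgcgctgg

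The Usp11 promoter held 8 CpG dinucleotides and 50.7% G and C, with 2 CCAAT boxes, an ETS motif and no GC box. That of Usp4 held 35 CpG and 69.7% G and C, with 3 GC boxes and an E-box, and that of Usp47 held 45 CpG and 73.0%, with 1 GC box. The table matched 37 of the 48 members by symbol, with 38 promoters, and 32851 promoters of all genes. The GC box was in 73.7% of the member promoters and 35.7% of all, and the median number of CpG was 29 and 7. The CCAAT box was in 21.1% and 37.4%, the TATA box in 5.26% and 13.6%, the E-box in 13.2% and 7.15% and the ETS motif in 21.1% and 8.86%. The CRE was in 2.63% and 1.79%, and the motif of NRF1 was in 0% and 0.971%. The promoters of all genes were not limited to genes with counts in these libraries, whereas the members had to pass a minimum count. These shares therefore cannot tell a trait of the family from one of genes with counts here. A match is a run of letters and not a shown binding site.

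Usp5, Usp13 and Usp14 handle free ubiquitin chains and ubiquitin at the proteasome. Usp13, a paralog of Usp5 (ENSMUSG00000056900, chromosome 3, 32817546 to 32938071 of mm10, plus strand), had 33.2, 39.1 and 44 CPM as the lowest, median and highest level in MI and 35.5, 45.0 and 50.0 CPM in Sham. Sham 1, 2 and 3 lay above all MI libraries, and Sham 5 lay near the bottom of the MI range. The log2 fold change was -0.20 (SE 0.09), with an unadjusted p of 0.044 and an adjusted p of 0.645. It was -0.38 in the Y-linked libraries, with an unadjusted p of 0.0068 in edgeR, and -0.00 in the Xist libraries, with an unadjusted p of 0.991. The difference between these had an unadjusted p of 0.0208 and an adjusted p of 0.568 in edgeR's interaction test, and 3 members (6.25%, beside 8.24% of all genes) had an unadjusted p under 0.05 there. Meningeal scores were 1.48, 0.80 and 0.42 in Sham 1, 2 and 3 and -0.63 in Sham 5. They did not follow Usp13 in every library: Sham 6 scored -0.69 with 41.0 CPM, and MI 1, the highest MI library, scored -0.32. The part of meningeal cells in the values of Usp13 was not tested.

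The other 2 of these genes differed little. Usp5 had 187.1, 196.8 and 222.5 CPM as lowest, median and highest in MI and 178.3, 199.0 and 223.9 CPM in Sham, ranges that overlapped almost fully, and a log2 fold change of 0.01 (SE 0.06). Usp14, which is bound to the proteasome, had a log2 fold change of -0.06 (SE 0.06). Exons of Usp14 overlap Thoc1 on the opposite strand over 26.0% of their length. Because the use of strand in counting is not given, its reads cannot be told apart from those of Thoc1 there.

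Usp39, Usp50, Usp53 and Usp54 have long been classed as family members without protease activity, and Usp39 is a component of the spliceosome. Usp54 (ENSMUSG00000034235, chromosome 14, 20548912 to 20641063 of mm10, minus strand) had 86.7, 95.8 and 102.3 CPM as the lowest, median and highest level in MI and 70.2, 85.0 and 99.7 CPM in Sham. Sham 1, 2 and 5 lay below all MI libraries, and the other 3 Sham libraries lay within the MI range. The log2 fold change was 0.18 (SE 0.08), with an unadjusted p of 0.0441 and an adjusted p of 0.645. It was 0.26 in the Y-linked and 0.10 in the Xist libraries. The myelin score was -0.62 and -0.69 in Sham 1 and Sham 2, where Usp54 was lowest, and 0.43 in MI 1, where it was highest. The score did not follow Usp54 in every library: Sham 3 scored -0.44 with 87.6 CPM, and Sham 5 scored -0.04 with 82.4 CPM. The part of myelinating cells in the values of Usp54 was not tested. Log2 fold changes were 0.04 (SE 0.05) for Usp39, -0.12 (SE 0.08) for Usp53 and -0.08 (SE 0.33) for Usp50.

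Members that act on histones and chromatin showed no difference past the threshold, 3 positive and 4 negative, with Usp51 not in this list and given with the other members. Usp22 had 258.0, 276.4 and 278.1 CPM as lowest, median and highest in MI and 264.1, 289.4 and 305.3 CPM in Sham, and 4 Sham libraries lay above every MI library. Its log2 fold change was -0.07 (SE 0.04), with an unadjusted p of 0.151 and an adjusted p of 0.753. Usp27x, which, like Usp51, can take the place of Usp22 in its module, had -0.09 (SE 0.08). The histone H2A proteases Usp3, Usp16 and Usp21 had 0.11 (SE 0.05), 0.01 (SE 0.04) and 0.04 (SE 0.07). Usp49, an H2B protease, had -0.06 (SE 0.07), and the nucleolar Usp36 had -0.04 (SE 0.05). Usp49 shares 52.3% of its exon bases with the annotated gene Gm20517 on the same strand, so its counts are uncertain.

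Of 8 members tied to p53, the Fanconi pathway and genome maintenance, 3 were positive and 5 negative, and Usp47 alone had an unadjusted p under 0.05. Usp7 had 180.9, 187.1 and 190.3 CPM as lowest, median and highest in MI and 182.9, 189.4 and 199.9 CPM in Sham, with overlap, and a log2 fold change of -0.03 (SE 0.04). Usp10, which acts on p53 outside the nucleus, had -0.04 (SE 0.04). Usp28, which stabilises Myc, had 0.07 (SE 0.05), and Usp37, a protease of the cell cycle and DNA replication, had -0.08 (SE 0.06). Usp45, a protease of the repair factor Ercc1, had 0.03 (SE 0.07), and the imprinted Usp29 had -0.12 (SE 0.14). Usp1, which removes ubiquitin from Fancd2 and PCNA, had 0.01 (SE 0.08). It shares the cofactor Wdr48 with Usp12 and Usp46, which had -0.07 (SE 0.06) and 0.02 (SE 0.09); Usp46 is known for a role in the turnover of glutamate receptors.

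Members of endosomes and membrane traffic were 2 positive and 3 negative, none with an unadjusted p under 0.05. Usp8, which works with the ESCRT machinery, had a log2 fold change of 0.02 (SE 0.04). Usp20 and Usp33, paralogs that act on membrane receptors, had 0.08 (SE 0.08) and -0.03 (SE 0.09). Usp32 had -0.06 (SE 0.04). Usp2, whose transcripts cycle with the circadian clock in many tissues, had -0.06 (SE 0.13), and Sham 6 stood at 89.2 CPM where the other libraries ran from 53.1 to 73.2 CPM. The labels do not state the hour of dissection. Sham 6 also had the highest dentate score (2.26). The parts of the hour and of dentate cells in the values of Usp2 were not tested.

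Usp19 had 183.5, 190.3 and 207.7 CPM as lowest, median and highest in MI and 180.4, 188.1 and 200.6 CPM in Sham, with wide overlap and a log2 fold change of 0.02 (SE 0.04). Usp30, which opposes Parkin at the outer mitochondrial membrane, had 0.06 (SE 0.05), and Usp35 had -0.12 (SE 0.08). Usp18, which removes the ubiquitin-like protein ISG15 and is induced by interferon, had 0.34 ± 0.094 RPKM in MI against 0.31 ± 0.086 RPKM in Sham (SD, n = 6 each). Its log2 fold change was 0.15 (SE 0.22), a wide error that goes with a mean of 24.0 counts. Of the 11 members in none of these lists, Usp43 had -0.67 (SE 0.47) and Usp51 -0.24 (SE 0.16), and the other 9 lay between -0.08 and 0.06.

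Usp9x, a protease of neuronal development on chromosome X (ENSMUSG00000031010, 13071498 to 13173328 of mm10, plus strand), had 158.5, 187.8 and 222.4 CPM as lowest, median and highest in MI and 150.8, 197.4 and 232.1 CPM in Sham. MI and Sham overlapped almost fully, with a log2 fold change of -0.06 (SE 0.11). The 6 Xist libraries ran from 195.5 to 232.1 CPM and the 6 Y-linked ones from 150.8 to 190.8 CPM, without overlap. Among all genes tested, 1.16% were higher in the Xist libraries in this way, and Usp9x was the 1 member that was. The other 3 X-linked members, Usp11, Usp27x and Usp51, overlapped between these sets. Of the 50-base stretches of Usp9x, 6.18% also occur in another gene.

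Some members with few counts varied several-fold between single libraries, and others hardly at all. Counts per library ran from 21 to 132 in Usp43, 5 to 32 in Usp50 and 11 to 48 in Usp18. In Usp48 they ran from 3660 to 5788. The part of counting noise in the ranges below was not tested. Over the 12 libraries the highest level was 1.06 times the lowest in Usp48, the narrowest range of the 48, and more than 2 times in 3 members: Usp43 (8.35-fold), Usp50 (6.37-fold) and Usp18 (2.73-fold). Usp43 was highest in Sham 1 (5.90 CPM) and Sham 2 (4.87 CPM) and lowest in Sham 5 (0.71 CPM) and MI 2 (0.81 CPM). Meningeal scores were 1.48 and 0.80 in the first pair and -0.63 and -0.44 in the second. They did not follow Usp43 in every library: MI 6 scored 0.45 with 1.95 CPM, and MI 1 scored -0.32 with 3.37 CPM. The part of meningeal cells in the values of Usp43 was not tested. Exons of Usp43 overlap 9130017K11Rik on the opposite strand over 12.8% of their length.

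In a principal component analysis of the 44 members with a mean of at least 400 counts, the first component held 48.2% of the variance and the second 15.9%. Its scores did not separate MI from Sham: Sham 1 was lowest with -0.88 and Sham 5 highest with 1.06, and MI ran from -0.60 in MI 1 to 0.63 in MI 4. Usp25 (weight 0.39), Usp33 (0.21) and Usp9x (0.20) stood at the positive end, and Usp29 (-0.43), Usp6nl (-0.32) and Usp13 (-0.27) at the negative end. Usp29 had 20.2 CPM in Sham 5 and 35.4 CPM in Sham 1, and Usp25 had 65.8 and 37.7 CPM, the opposite order. Exons of Usp29 overlap other genes over 14.8% of their length, mainly Zim3 on the opposite strand. For Usp33 this was 24.4%, mainly Gm43857 on the opposite strand. The use of strand in counting is not given, so reads there cannot be told apart. The CA1 marker score was 0.64 in Sham 5 and 0.43 in MI 4, against -1.0 in Sham 1. Sham 6, near the top of the component with 0.58, had a CA1 score of -0.14. Meningeal scores were 1.48 in Sham 1, -0.63 in Sham 5 and -0.69 in Sham 6, opposite in sign to the component. In MI 1 (-0.32) and MI 6 (0.45) they had the sign of the component, which was -0.60 and 0.25. Sham 1 and Sham 5 also had the fewest and the most counts, 20764133 and 35643127. The parts of CA1 cells, meningeal cells and library totals in the component were not tested.

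**Figure D5:**
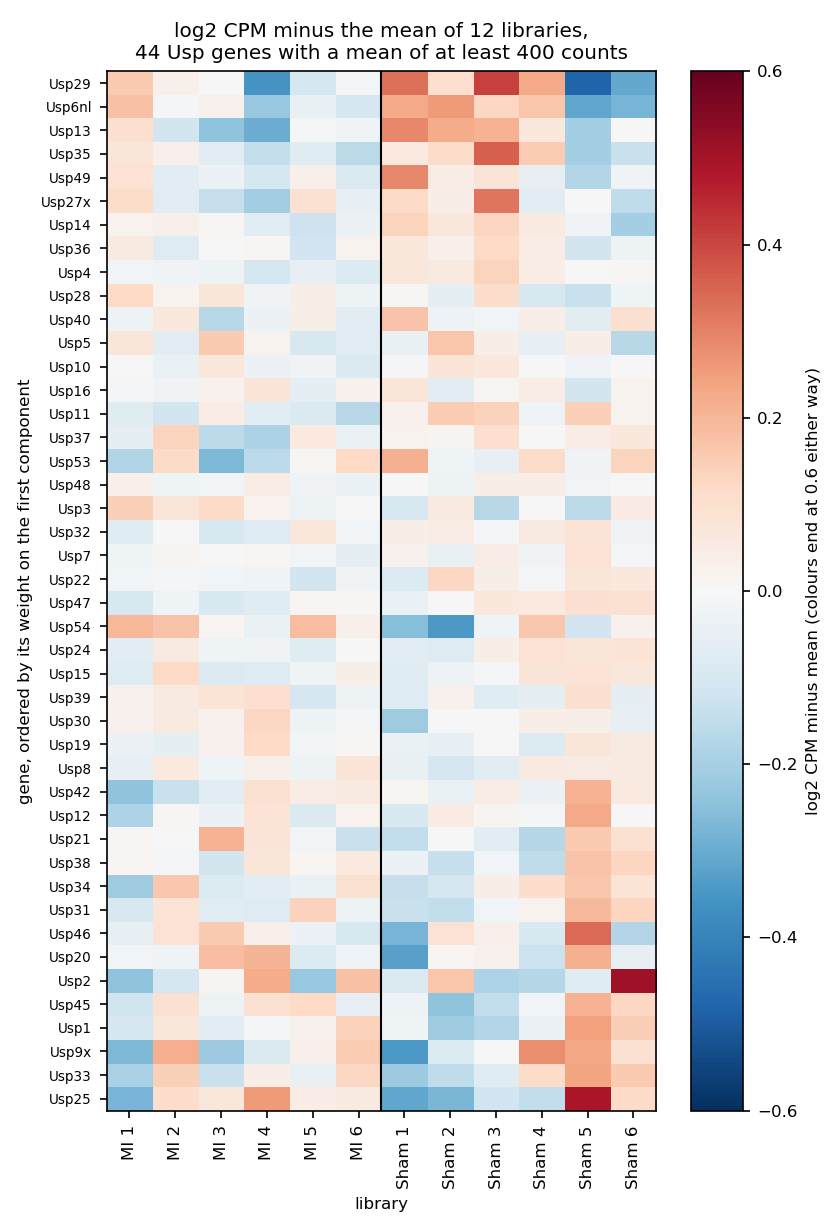
Log2 CPM minus the mean of 12 libraries for the 44 members with a mean of at least 400 counts, ordered by their weight on the first principal component; red is above and blue below the mean, with colours ending at 0.6. Sham 5 is blue in the top rows, such as Usp29, and red in the bottom rows, such as Usp25, and Sham 1 shows the opposite.

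Genes that work with the family were followed in the same fit. Of the 3 family members under other names, Uspl1 had a log2 fold change of -0.06 (SE 0.04), Pan2, a part of a deadenylase complex, 0.03 (SE 0.07) and Cyld, which is known as a tumour suppressor, 0.03 (SE 0.09). Of 32 deubiquitinases of other families, 16 were positive and 16 negative, with a median of 0.00 and 1 in each direction at an unadjusted p under 0.05. These were Josd2, of the Josephin group, with 66.6 CPM in MI and 55.7 CPM in Sham and 0.26 (SE 0.06, adjusted p 0.597), and Mindy4 with -0.19 (SE 0.08, adjusted p 0.645). Mindy1 had 0.12 (SE 0.06). Of 20 partner and substrate genes, 6 were positive and 14 negative, with a median of -0.01. Stam2, an endosomal partner of Usp8, had 0.12 (SE 0.05), its paralog Stam -0.07 (SE 0.03) and G3bp2, a relative of the Usp10 partner G3bp1, -0.07 (SE 0.04).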

How the data were processed

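RNA of dissected CA1 tissue was measured in 6 MI and 6 Sham libraries. The authors deposited raw read counts, as whole numbers for each Ensembl gene. The submitters' processing notes name FastQC 0.11.5, STAR 2.5.2b, featureCounts, Subread 1.5.1 and mm10, without order or settings. The authors also deposited tables of higher and lower genes with log2 fold changes and log2 values per library, and adjusted p-values; the steps behind them were not stated in the labels or file headers.

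Coordinates and exon lengths came from GENCODE M21 (mm10). Genes were kept by filterByExpr (16829 of 48709), scaled by TMM and compared by edgeR's quasi-likelihood F test (version 4.0.16 in R 4.3.3; two-sided, robust, no covariates), with Benjamini-Hochberg adjustment over all genes tested and a threshold of 0.05. Log2 CPM used a prior count of 2. The procedure was run on simulated data with changes larger than those of most members, and the outcome is not given here. That run cannot show what the procedure would find for differences as small as theirs. Alternatives were DESeq2 1.42.0, limma-voom (limma 3.58.1) with sample weights, other scalings and filters, a replicate block, the Y-linked or Xist set as covariate or alone, and libraries left out. Y-linked counts were the sum of Ddx3y, Kdm5d, Eif2s3y and Uty. No pair of libraries within a group was a duplicate. Totals ran from 20764133 to 35643127 counts, and precision is lowest in the 4 members with means under 100 counts.

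The members and gene lists were chosen with earlier results of these data known. Values were printed for members with an unadjusted p under 0.05, members in the authors' tables, the 5 with the highest level per length, Usp9x and Usp9y, and members with a listed role; of each list of related genes, the 3 with the smallest p, except 1 list that is not reported here. Cell type markers (oligodendrocyte, meninges, CA1, dentate gyrus, CA2 and CA3, interneuron, astrocyte, microglia, endothelium, choroid plexus, blood) were used as list scores per library, with no test of a score, and single markers only to check the labelled tissue. In the fit across all genes, all 16 myelin markers were at an unadjusted p under 0.05, higher in MI, and 0 passed after adjustment.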

Additional observations from a re-analysis of the deposited data

Results flagged for a closer look

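In 2 of 96 groups of 6 libraries (48 members, MI and Sham) a single library stood far from the other 5; chance gives about 1 in 20 groups. Usp22, the ubiquitin protease of the SAGA complex, was at 258.0 CPM in MI 5, where the nearest MI library had 275.4 CPM and the highest 278.1 CPM. Usp42 was at 33.5 CPM in Sham 5, where the next Sham library had 30.1 CPM and the lowest 28.2 CPM.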

How the results depend on the processing

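No member passed an adjusted p of 0.05 in any of the 23 alternatives. The 5 members with an unadjusted p under 0.05 kept their sign in all 23. They were picked by p in these same libraries, which the alternatives reuse, so a kept sign is no separate evidence. For Usp13 the log2 fold change ran from -0.38 in the Y-linked libraries to -0.00 in the Xist libraries (edgeR, unadjusted p of 0.991 in the latter). Of all genes, 1.26% passed in the Y-linked libraries alone (211 genes), 16 genes passed in DESeq2 and 0 in the other alternatives. The unadjusted p stayed under 0.05 in 22 alternatives for Usp11, 21 for Usp4, 14 for Usp13, 12 for Usp47 and 11 for Usp54. Leaving out 1 library at a time gave log2 fold changes from -0.18 to -0.14 for Usp11, -0.11 to -0.09 for Usp4, -0.11 to -0.08 for Usp47, -0.25 to -0.16 for Usp13 and 0.13 to 0.23 for Usp54. The count of higher members at an unadjusted p under 0.05 (1) became 0 under limma-voom, in the Xist libraries alone and without Sham 1 and Sham 6, and 2 in the Y-linked libraries alone; the shares of all genes there were 5.81%, 0.784%, 3.37% and 7.59%. Leaving out single libraries gave 0 to 2: 0 without MI 1, MI 2, MI 5, MI 6, Sham 1, Sham 3 or Sham 5, and 2 without Sham 6. The share of all genes then ran from 2.83% without MI 1 to 5.47% without Sham 5. The count of lower members (4) became 2 without a filter on low counts, 8 in the Y-linked and 1 in the Xist libraries alone. The shares of all genes there were 2.82%, 8.67% and 0.489%. Without single libraries the count became 2 to 5, with 2 without MI 3, MI 4, Sham 3 or Sham 4. The share of all genes then ran from 2.48% without MI 3 to 6.41% without Sham 5. The median level per length became 12.8 RPKM with the longest transcript as the length. The cause of these shifts was not tested, and neither was the part of the smaller number of libraries where some were left out. Members with a negative fold change were fewest in the Y-linked libraries alone, with 26 (54.2%, beside 51.6% of all genes). They were most in the Xist libraries alone, with 35 (72.9%, beside 51.8% of all genes).

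With the replicate number as a block, Usp11 kept a log2 fold change of -0.15 (edgeR, unadjusted p of 0.0136), and higher members at an unadjusted p under 0.05 numbered 0 and lower ones 3, beside 3.77% and 2.8% of all genes. Same-numbered MI and Sham libraries did not deviate together in every pair (correlations from -0.35 to 0.40, with 3 of 6 best with their own number), so the numbers were not taken to pair the libraries. Members with few counts limit what can be seen: Usp50 and Usp18 have SEs of 0.33 and 0.22.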
